A study of Homo sapiens with 10 samples.

Results

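The genes described here are 10 parts of the desmosome: the desmosomal cadherins DSG2, DSG3, DSC2 and DSC3, the armadillo proteins JUP, PKP1, PKP2 and PKP3, the plakin DSP, and PERP. A probe set, the array's unit of measurement for a transcript, was taken as a member where its annotation named 1 gene and that gene was among the 10. This gave 24 probe sets of the 41091 that name 1 gene, with 1 to 5 for each of the 10 genes of 19775 on the array. No probe set naming several genes included a member.

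RWPE-1, a non-tumorigenic line of human prostate epithelium, was profiled on 10 Affymetrix HG-U133 Plus 2.0 arrays. Cells expressing BirA and ETV1 gave 4 arrays (A to D), cells labelled as expressing BirA and ERG gave 3 (A to C), and control cells expressing BirA alone gave 3 (A to C). All carried BirA, a bacterial biotin ligase, came from transduction with MSCV retroviral vectors and selection of stable clones, and grew in normal conditions. Both ETS factors are transcription factors that gene fusions switch on in prostate cancer, and the comparisons ask which genes differ when either is overexpressed. The submitters' design text mentions 3 biological replicates, although ETV1 has 4 arrays here, and nothing says which of those 4, if any, share a culture. The labels do not say whether replicates of a group came from separate clones, so the spread between arrays may be partly technical, and a difference between groups cannot be told apart from one between clones.

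Desmosomes are junctions that hold neighbouring epithelial cells together and give the sheet its mechanical strength. The desmogleins and desmocollins bind across the gap between cells. Inside the cell, plakoglobin (JUP) and the plakophilins (PKP1 to PKP3) bind the cadherin tails, and desmoplakin (DSP) ties this plaque to the keratin filaments. PERP is a membrane protein of the desmosome and a target of the p53 family. In stratified and pseudostratified epithelia, DSG3 and DSC3 are known chiefly from basal cells, while DSG2 and DSC2 are more widely made.

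ETS factors bind DNA around a GGAA core. The sequences below are the 250 bases before the RefSeq transcription starts of DSG3, DSC2 and DSG2, the cadherins with the largest passing differences below (GRCh38.p14, each 5′ to 3′ on the gene's own strand), shown because these windows are where such a core would lie closest to the start. Capitals mark each GGAA and its reverse complement TTCC.
DSG3, chr18:31447491-31447740, plus strand: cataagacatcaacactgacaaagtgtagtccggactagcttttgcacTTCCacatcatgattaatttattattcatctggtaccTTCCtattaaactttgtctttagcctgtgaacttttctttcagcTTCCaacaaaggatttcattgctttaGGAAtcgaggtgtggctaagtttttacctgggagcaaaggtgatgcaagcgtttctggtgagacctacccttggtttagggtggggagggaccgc
DSC2, chr18:31101261-31101510, minus strand: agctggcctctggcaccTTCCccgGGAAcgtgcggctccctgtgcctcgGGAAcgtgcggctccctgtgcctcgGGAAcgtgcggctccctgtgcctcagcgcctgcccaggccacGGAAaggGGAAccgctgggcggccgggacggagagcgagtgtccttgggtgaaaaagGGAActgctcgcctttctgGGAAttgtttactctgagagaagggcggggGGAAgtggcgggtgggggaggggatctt
DSC2, chr18:31102422-31102671, minus strand: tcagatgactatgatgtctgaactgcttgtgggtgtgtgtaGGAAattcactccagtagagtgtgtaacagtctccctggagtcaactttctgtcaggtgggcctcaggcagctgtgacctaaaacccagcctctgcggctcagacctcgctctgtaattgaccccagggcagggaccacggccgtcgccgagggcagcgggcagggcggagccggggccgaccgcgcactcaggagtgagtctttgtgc
DSG2, chr18:31497927-31498176, plus strand: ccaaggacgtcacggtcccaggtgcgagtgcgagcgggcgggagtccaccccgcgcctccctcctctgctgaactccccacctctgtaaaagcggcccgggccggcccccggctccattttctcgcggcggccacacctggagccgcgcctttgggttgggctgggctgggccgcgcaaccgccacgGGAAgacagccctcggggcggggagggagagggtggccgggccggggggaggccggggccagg
The DSG3 window held 4 core matches, the DSC2 windows 9 and 1, and the DSG2 window 1. The core is common: it lay on either strand of 92.7% of 35116 promoter windows of the same length, with a median of 3 matches. The longer CCGGAA, which contains the core, lay on either strand of 14.5% of windows. Among the 10 windows that matched 8 of the 10 genes, only that of PERP held it, with 1 match. A match is a run of letters and not a measured binding site. PKP2 and PKP3 were not matched to a window.

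Across the whole array the samples labelled ERG differed widely from the other 7. Over all probe sets, the Spearman correlation with the control arrays lay between 0.956 and 0.969 for ETV1 arrays and between 0.766 and 0.811 for arrays labelled ERG. Median intensity was 73.8 ± 2.01 on ETV1 arrays (SD, n = 4), 50.7 ± 2.09 on arrays labelled ERG (n = 3) and 72.5 ± 1.05 on control arrays (n = 3). The ACTB signal at the 3 prime end over that at the 5 prime end, which rises with degraded RNA, was 1.26 ± 0.029 on ETV1 arrays, 2.94 ± 0.171 on arrays labelled ERG and 1.38 ± 0.024 on control arrays. The same ratio of GAPDH was 1.02 ± 0.025 on ETV1 arrays, 1.005 ± 0.052 on arrays labelled ERG and 0.916 ± 0.020 on control arrays. The 5 prime probe set of 18S ribosomal RNA read 633 ± 253 on ETV1 arrays, 961 ± 135 on arrays labelled ERG and 121 ± 39.7 on control arrays. The brightest ETV1 probe set (217053_x_at) averaged 1320 on ETV1 arrays, 14.9 on arrays labelled ERG and 88.1 on control arrays. Of the ERG probe sets, 222079_at averaged 9.43 on arrays labelled ERG and 186 on control arrays, while the other 3 were dim and not tested. They averaged 36.5 and 9.04 (211626_x_at), 33.5 and 25.5 (213541_s_at), and 26.4 and 17.2 (241926_s_at) on the same groups. With 3 of 4 higher but dim and the brightest lower, the ERG probe sets did not settle the label, which is kept as the submitters' word. The part of these differences in the results was not tested.

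The labelled epithelium was checked against its markers. EPCAM, CDH1, KRT8 and KRT18 summed to 9479 to 12463 on ETV1 arrays, 19414 to 21168 on arrays labelled ERG and 13552 to 16947 on control arrays, and the basal keratins KRT5 and KRT14 to 16536 to 18438, 20568 to 22302 and 13375 to 14190. Of the luminal markers, KLK3 alone was matched and read 526 to 622 on ETV1 arrays, 130 to 131 on arrays labelled ERG and 489 to 656 on control arrays. Of 6 fibroblast markers, 4 lay below the array median on every array, and the list summed to 1104 to 1138 on ETV1 arrays, 223 to 320 on arrays labelled ERG and 959 to 1202 on control arrays. Of 4 endothelial markers, 1 lay below the median on every array, and the sums were 1329 to 1492, 177 to 207 and 1444 to 1653. Of 3 leukocyte markers, 2 lay below the median on every array, and the sums were 213 to 234, 58.3 to 106 and 202 to 280. Heart muscle also has DSG2, DSC2 and PKP2, and of 4 heart and smooth muscle markers 2 lay below the median on every array, with sums of 95.3 to 105, 158 to 191 and 82.5 to 112. Within that list DES averaged 4.30, 93.3 and 1.07 and MYH11 16.5, 50.4 and 14.8, while MYH6 averaged 38.4, 12.6 and 41.0 and MYH7 40.9, 19.3 and 40.5. In RNA from whole cultures, fewer cells of a type and less RNA per cell cannot be told apart.

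Of the 24 member probe sets, 21 passed the filter on dim signal, which asked for a value above the array's median on at least 3 arrays. The other 3, one for DSC3 (244107_at) and a pair for PERP (240797_at and 1556990_at), were not tested. DSC3 244107_at ran from 41.0 to 71.1 on ETV1 arrays, 25.2 to 65.9 on arrays labelled ERG and 46.9 to 51.1 on control arrays. PERP 240797_at and 1556990_at stayed at or below 20.2 on every array. Of the 21, 17 lay above the median on all 10 arrays. The other 4 passed through some groups only. DSC2 204750_s_at did so through ETV1 and control arrays, and PKP3 209872_s_at through all 4 ETV1 arrays and 2 control arrays. DSC2 231033_at did so through all 3 arrays labelled ERG and 1 control array, and PKP2 214154_s_at through 3 ETV1 arrays. Between a group that carried them through the filter and one that did not, a difference on these 4 was favoured by the filter, and their values there are given as readings. A change between groups is given on the log2(intensity + 16) scale, on which dim probe sets change less than their intensity ratio. Adjusted p-values come from limma, with Benjamini-Hochberg adjustment over all 31835 probe sets tested and a threshold of 0.05.

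**Figure D1:**
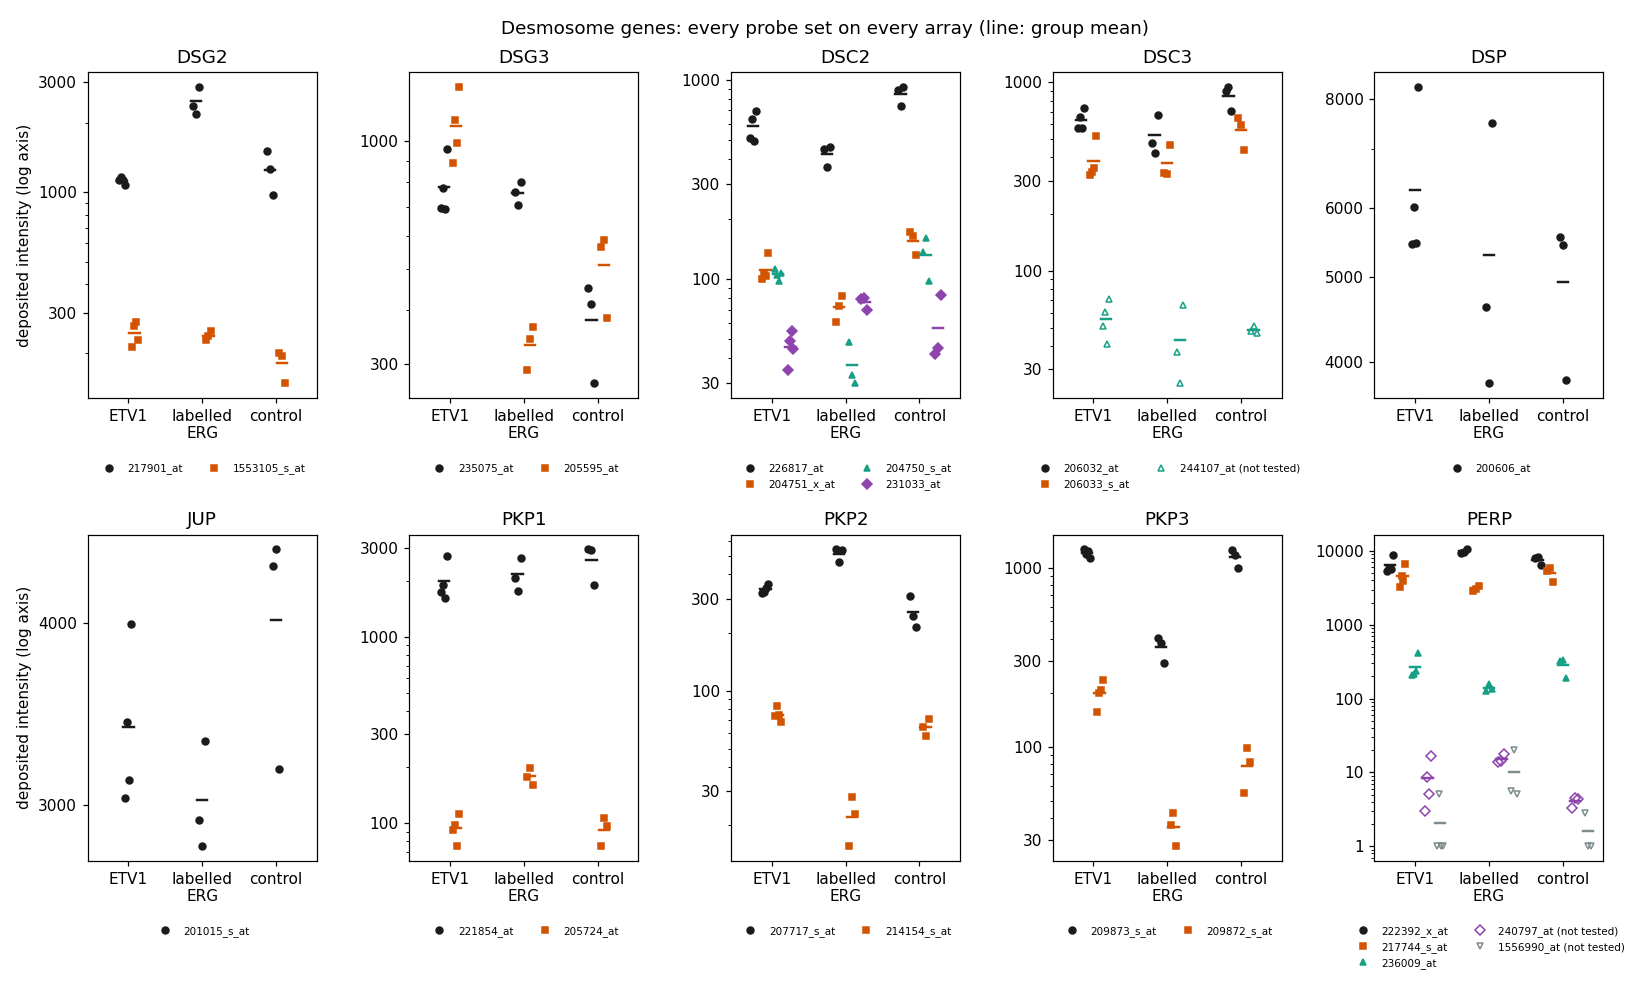
Intensity (log axis) of the member probe sets on each array, with ETV1 arrays, arrays labelled ERG and control arrays set out from left to right. Points are single arrays and bars are group means. For DSG3 the ETV1 points of both probe sets lie above all control points, while DSP and JUP points of ETV1 and control arrays mix.

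In ETV1 cells, DSG3 was about 2-fold higher than in control cells. DSC2 passed as lower on 1 of 4 probe sets, a call lost under some alternatives. The cadherin calls as deposited were thus not all in 1 direction, and 1 of 2 PKP3 probe sets was also higher. Of the 21 tested member probe sets, 4 passed the test (3 higher, 1 lower), against 20.5% of all tested probe sets (9.2% higher, 11.3% lower). The 3 higher ones also differed at least 2-fold, as did 3.63% of all tested. They include PKP3 209872_s_at, whose rise the filter favoured. At the gene level 2 genes rose (DSG3 and PKP3), 1 fell (DSC2) and 7 had no passing probe set. Groups did not overlap for 6 of the 21, against 32.8% of all probe sets, and the members' median difference was −0.13, against −0.03 over all probe sets. The members' median was −0.29 without control array C, −0.02 without control array B, −0.0027 with cyclic loess and 0.05 with probe sets averaged by gene, so its sign depended on the processing. The share of calls among the desmosome genes did not stand out from that of the array.

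DSG3, the desmoglein that is the target of autoantibodies in pemphigus vulgaris, had the clearest difference among the cadherins. Its probe set 205595_at read 890, 1120, 990 and 1342 on ETV1 arrays A to D, against 565, 586 and 385 on control arrays A to C. Every ETV1 array was brighter than every control array, and the difference was 1.07 (SE 0.17, adjusted p = 5.9e-04, limma). The other DSG3 probe set, 235075_at, read 697, 774, 693 and 958 on ETV1 arrays and 453, 415 and 269 on control arrays. Here too the groups did not overlap, with a difference of 1.03 (SE 0.17, adjusted p = 7.5e-04, limma). An exact two-sided permutation test gave p = 0.029 for each, which is the lowest value possible between groups of 4 and 3. Both DSG3 probe sets passed under every processing alternative.

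DSC2, a desmocollin and a partner of the desmogleins in the same junction, had 4 probe sets. On 226817_at it read 508, 638, 490 and 695 on ETV1 arrays, against 886, 740 and 921 on control arrays. All ETV1 arrays were dimmer than all control arrays, with a difference of −0.54 (SE 0.15, adjusted p = 0.023, limma). It passed in 17 of 24 settings, the fit to the deposited values counted among them. The call was lost under quantile normalization (−0.52, adjusted p = 0.053, limma), with cyclic loess (−0.44), with no filter on dim signal (adjusted p = 0.054, limma), and without control array A, control array C, ETV1 array A or ETV1 array C, with differences of −0.51, −0.48, −0.48 and −0.46. The 204751_x_at probe set gave −0.43 with an adjusted p of 0.0503 (limma), which just missed the threshold, although it passed in 13 of 22 settings, and 204750_s_at and 231033_at gave −0.26 and −0.21. DSC2 was thus lower on average on 4 of 4 probe sets, of which 1 passed.

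DSC3, the desmocollin best known from basal cells, read 572, 652, 573 and 733 on 206032_at in ETV1 cells and 896, 949 and 706 in control cells. Control array C fell within the range of the ETV1 arrays, and the difference of −0.41 did not pass (adjusted p = 0.099, limma). On 206033_s_at the values were 323.1, 334.1, 350.9 and 518.0 on ETV1 arrays and 649.5, 596.1 and 438.6 on control arrays, a difference of −0.55 that also did not pass (adjusted p = 0.057, limma). The call on 206033_s_at depended on the processing: it passed as lower in 13 of 23 settings, with differences of −0.73 to −0.43 over all of them. Without control array C the difference was −0.71 (adjusted p = 0.027, limma). Control array C was thus the lowest of its group on both DSC3 probe sets.

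DSG2, the desmoglein found in nearly all tissues with desmosomes, differed little on its brighter probe set. 217901_at read 1129, 1164, 1130 and 1071 on ETV1 arrays, against 1509, 1261 and 971 on control arrays, a difference of −0.13 with a 95% interval of −0.46 to 0.20. All ETV1 values lay inside the control range. On 1553105_s_at the ETV1 arrays read 212, 263, 273 and 228 and the control arrays 200, 194 and 148. These did not overlap, and the difference of 0.41 narrowly missed the threshold (adjusted p = 0.053, limma), and it passed in 9 of 22 settings.

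Among the plaque proteins, PKP3, a plakophilin of nearly all epithelial desmosomes, gave different answers on its pair of probe sets. 209872_s_at read 157, 200, 208 and 235 on ETV1 arrays, against 54.9, 97.7 and 81.6 on control arrays. Every ETV1 array was above every control array, and the difference was 1.21 (SE 0.18, adjusted p = 2.5e-04, limma) with an exact permutation p of 0.029. It passed under every alternative in which it was tested. All 4 ETV1 arrays but only 2 control arrays lay above the median on it, so the filter favoured this rise, given as a reading. On 209873_s_at PKP3 averaged 1202 ± 61.1 on ETV1 arrays (SD, n = 4) and 1140 ± 137 on control arrays (n = 3), a difference of 0.08 with a 95% interval of −0.22 to 0.38.

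PKP2, the plakophilin that is also the main one of heart muscle, read 322, 326, 340 and 359 on 207717_s_at in ETV1 cells and 310, 244 and 213 in control cells. The groups did not overlap, yet the difference of 0.39 did not pass (adjusted p = 0.061, limma). It passed in 10 of 23 settings, among them the one without control array A, at 0.53 (adjusted p = 0.022, limma). The dim 214154_s_at gave 0.18. PKP1, the plakophilin of stratified epithelia, averaged 1996 ± 508 on ETV1 arrays and 2589 ± 598 on control arrays on 221854_at, a difference of −0.38 that did not pass (adjusted p = 0.23, limma). On the dimmer 205724_at PKP1 gave 0.02, with an interval of −0.30 to 0.35.

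JUP, plakoglobin, which binds the tails of both classical and desmosomal cadherins, had 1 probe set. It read 3031, 3416, 3119 and 3993 on ETV1 arrays, against 4377, 4492 and 3174 on control arrays, and control array C fell within the ETV1 range. The difference of −0.23 had an interval of −0.56 to 0.09. DSP, which carries the link to keratin, read 5458, 6010, 5466 and 8261 on ETV1 arrays and 5559, 5435 and 3813 on control arrays. The DSP difference of 0.35 was within the spread between arrays (interval −0.13 to 0.83, adjusted p = 0.31, limma). A change in either gene smaller than these intervals was not detectable with this number of arrays.

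PERP gave differences of −0.26, −0.14 and −0.08 on its 3 tested probe sets, with adjusted p-values of 0.31, 0.70 and 0.85 (limma). On 222392_x_at it read 5372, 5925, 5627 and 8677 on ETV1 arrays, against 8025, 8302 and 6398 on control arrays. ETV1 array D was brighter than every control array while the other 3 ETV1 arrays were dimmer than all of them. The same array was the highest of its group on 217744_s_at, at 6648, and on 236009_at, at 418.

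**Figure D2:**
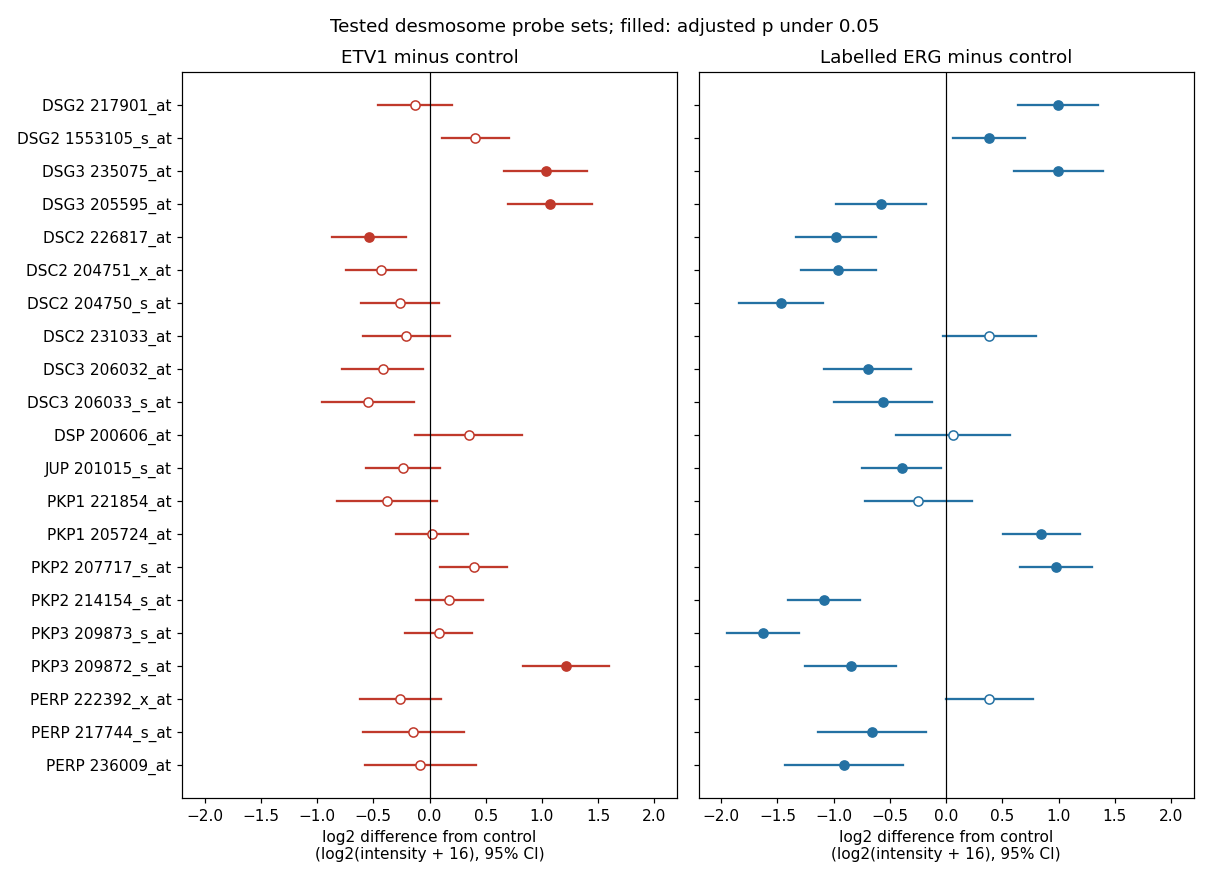
Difference from control on the log2(intensity + 16) scale for each tested member probe set, with its 95% interval, for ETV1 cells (left) and for the arrays labelled ERG (right). Filled points passed at an adjusted p under 0.05, which 4 of 21 did in ETV1 cells and 17 of 21 on the arrays labelled ERG.

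The spread within groups was partly shared across the genes. Taking the brightest probe set of each of the 10 genes, control array C lay below its group's mean for 9 genes, with a median deviation of −0.29 on the log2 scale, where the median over all tested probe sets on that array was −0.15. Control array A lay above its group's mean for 10 of 10. ETV1 array D lay above its group's mean for 8 of 10, with a median deviation of 0.25, where the median over all tested probe sets was −0.01. DSP, PKP1 and PERP deviated most on ETV1 array D, by 0.41, 0.48 and 0.47. DSC2 on control array C, at 0.12 above its group's mean, was the exception there, and PKP3 and DSG2 were those on ETV1 array D, at −0.09 and −0.07.

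**Figure D3:**
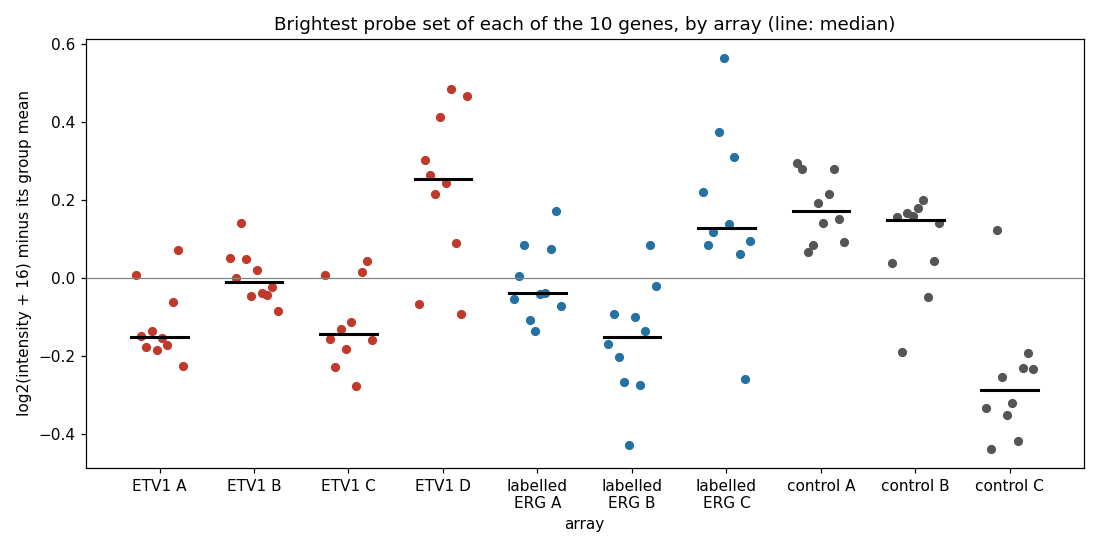
Deviation of each array from its group's mean on the log2(intensity + 16) scale, for the brightest probe set of each of the 10 genes. Each point is 1 gene on 1 array. Control array C lies below zero for 9 genes and ETV1 array D above zero for 8.

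The count of calls in ETV1 cells varied with the arrays kept. Of the members' probe sets, 6 passed without ETV1 array D (3 higher, 3 lower) and 5 without control array C (3 higher, 2 lower), against 4 in the fit of all arrays. The arrays labelled ERG, which enter this comparison only through the filter and the shared estimate of spread, also moved it. Without array C of that label 9 passed, without array B 8, and with control and ETV1 arrays alone 9 (5 higher, 4 lower). With control and ETV1 arrays alone and ETV1 array D also left out, 10 passed (4 higher, 6 lower). The lowest count without any 1 array was 3.

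On the arrays labelled ERG, most desmosome genes read differently from control, PKP3 and DSC2 lower and DSG2 higher. Of the 21 tested probe sets, 17 passed (5 higher, 12 lower), against 78.2% of all tested probe sets (40.6% higher, 37.6% lower). Of these, 3 differed at least 2-fold, where 44.1% of all tested did. They were PKP3 209873_s_at (−1.63), DSC2 204750_s_at (−1.47) and PKP2 214154_s_at (−1.09). DSC2 204750_s_at and PKP2 214154_s_at lay above the median on no array labelled ERG, so these values are readings. The same holds for PKP3 209872_s_at, also counted among the lower calls. Taking each gene's passing probe sets alone, 2 genes had rises (DSG2 and PKP1), 5 had falls (DSC2, DSC3, JUP, PKP3 and PERP), 2 had both (DSG3 and PKP2), and DSP had none. For PKP1 and PERP this leaves out the brightest probe set, which did not pass and differed the other way, at −0.25 and 0.38. PKP2 counts as having both only through 214154_s_at, which lay at or below the array median in both groups. Its brighter probe set, 207717_s_at, passed as higher. Averaged over its probe sets, PKP1 gave 0.30 and PERP −0.0016, and neither passed. Groups did not overlap for 16 of 21, against 76.7% of all probe sets. The members' median difference was −0.56, against 0.08 over all probe sets, and was −0.16 with median centring, −0.09 with the brightest probe set per gene and −0.03 with probe sets averaged by gene. The share of calls among the members was thus close to that of the array as a whole.

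The scale of the arrays mattered in this comparison. Median centring moved the median difference of all probe sets to 0.49 and the share of higher calls to 65.0%, against 51.9% with the values as deposited. With it 13 member probe sets passed (7 higher, 6 lower). Of the 17 member probe sets that passed as deposited, 10 passed in the same direction under quantile normalization, median centring and cyclic loess alike. These 10 were both DSG2 probe sets, DSG3 235075_at, DSC2 226817_at, 204751_x_at and 204750_s_at, PKP1 205724_at, both PKP2 probe sets and PKP3 209873_s_at. Among them, DSC2 204750_s_at and PKP2 214154_s_at lay above the median on no array labelled ERG and are given as readings.

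Probe sets of the same gene often disagreed on these arrays. Of 4958 genes with at least 2 passing probe sets, 2494 (50.3%) had passing probe sets in both directions, against 39 of 1054 (3.70%) in the comparison of ETV1 with control. Among the 7 desmosome genes with at least 2 passing probe sets, DSG3 and PKP2 did so, PKP2 through a probe set at or below the array median in both groups. A single probe set on the arrays labelled ERG is therefore given below as a reading of that probe set.

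DSG2 read 2372, 2188 and 2870 on 217901_at on the arrays labelled ERG, against 1509, 1261 and 971 on control arrays. The groups lay well apart, with a difference of 0.99 (SE 0.17, adjusted p = 6.0e-05, limma). An exact permutation test gave p = 0.10, the lowest value possible between groups of 3 and 3. On 1553105_s_at DSG2 was also higher, by 0.38 (adjusted p = 0.031, limma), a call that was lost without control array C, at 0.25 (adjusted p = 0.11, limma).

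The DSG3 probe sets moved apart. 235075_at read 758, 709 and 803 on the arrays labelled ERG and 453, 415 and 269 on control arrays, a difference of 0.998 (SE 0.19, adjusted p = 1.7e-04, limma). 205595_at read 289, 343 and 365 on the arrays labelled ERG and 565, 586 and 385 on control arrays, a difference of −0.58 (SE 0.19, adjusted p = 0.010, limma). The same gene thus read higher on one probe set and lower on the other, with no overlap on either. The fall on 205595_at did not pass with median centring, at −0.17 (adjusted p = 0.37, limma), or without control array B, at −0.48 (adjusted p = 0.054, limma).

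**Figure D4:**
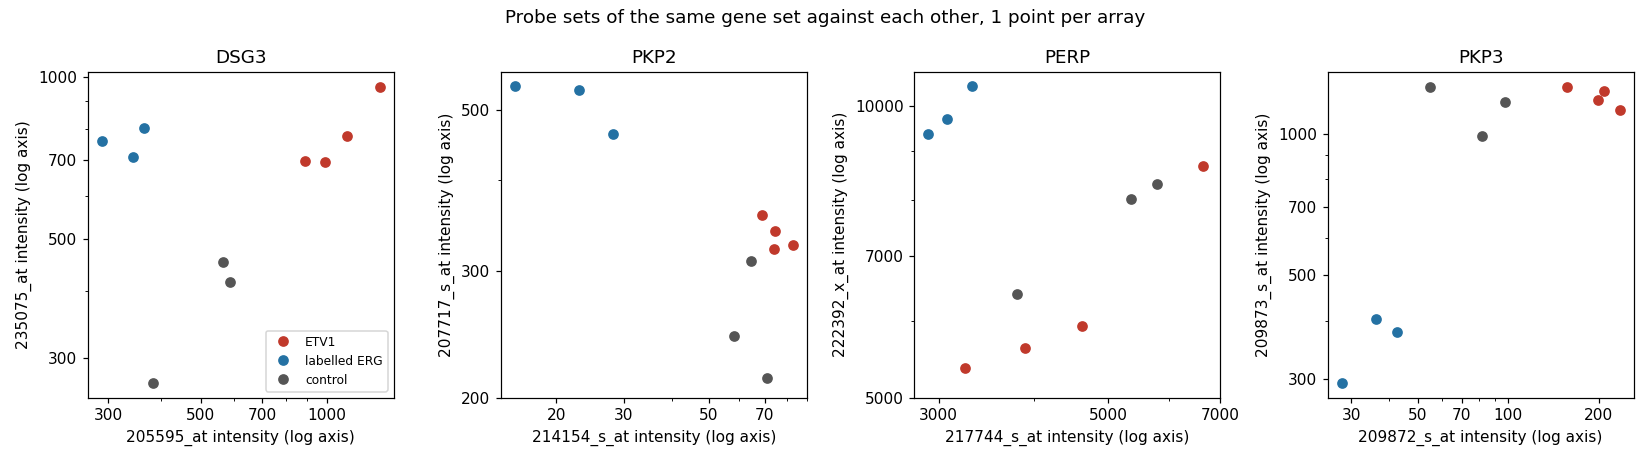
Intensity on one probe set against that on another of the same gene (log axes), 1 point per array, for DSG3, PKP2, PERP and PKP3. For DSG3 the ETV1 arrays lie above control on both axes, while the arrays labelled ERG lie above control on 235075_at (vertical) and below it on 205595_at (horizontal).

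DSC2 fell on 3 of its 4 probe sets. 226817_at read 447, 364 and 458 on the arrays labelled ERG and 886, 740 and 921 on control arrays, a difference of −0.98 (SE 0.17, adjusted p = 7.1e-05, limma). The 204751_x_at and 204750_s_at probe sets gave −0.96 and −1.47 (adjusted p = 5.1e-05 and 2.2e-06, limma), with no overlap between groups. 204750_s_at passed the filter only through ETV1 and control arrays, so its fall was favoured by the filter and is given as a reading. On the dim 231033_at DSC2 averaged 76.5 ± 5.99 on the arrays labelled ERG and 56.9 ± 22.9 on control arrays, and the difference of 0.39 did not pass (adjusted p = 0.080, limma). That probe set passed as higher under quantile normalization, median centring and cyclic loess, at 0.76, 0.79 and 0.93.

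DSC3 read 476, 425 and 671 on 206032_at on the arrays labelled ERG, against 896, 949 and 706 on control arrays, a difference of −0.70 (SE 0.18, adjusted p = 0.0025, limma). Its 206033_s_at gave −0.56 (adjusted p = 0.020, limma), with overlapping ranges. Neither DSC3 probe set passed with median centring, at −0.29 and −0.16.

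PKP3 had the most negative difference among the members. 209873_s_at read 402, 378 and 294 on the arrays labelled ERG, against 1260, 1169 and 990 on control arrays. The intensity ratio was 0.31 and the difference −1.63 (SE 0.15, adjusted p = 1.5e-07, limma). On 209872_s_at PKP3 read 36.3, 42.7 and 27.8 on the arrays labelled ERG and 54.9, 97.7 and 81.6 on control arrays, a difference of −0.85 (adjusted p = 8.3e-04, limma) that did not pass with cyclic loess, at −0.28 (adjusted p = 0.22, limma). 209872_s_at lay above the median on ETV1 arrays and 2 control arrays but on no array labelled ERG, so its fall is given as a reading.

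PKP2 was higher on its brighter probe set. 207717_s_at read 540, 464 and 534 on the arrays labelled ERG and 310, 244 and 213 on control arrays, a difference of 0.97 (SE 0.15, adjusted p = 2.7e-05, limma). 214154_s_at read 15.6, 28.2 and 22.9 on the arrays labelled ERG and 64.6, 58.2 and 71.0 on control arrays, a difference of −1.09 (SE 0.15, adjusted p = 8.7e-06, limma). Since 214154_s_at passed the filter only through ETV1 arrays, and both groups compared here lay at or below their array's median, that value does not bear on whether PKP2 moved both ways.

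PKP1 rose on 205724_at, which read 178, 197 and 160 on the arrays labelled ERG, against 75.2, 106 and 96.0 on control arrays, with a difference of 0.85 (SE 0.16, adjusted p = 2.0e-04, limma). The brighter 221854_at read 2080, 1765 and 2653 on the arrays labelled ERG and 2952, 2918 and 1899 on control arrays, and the difference of −0.25 did not pass (adjusted p = 0.32, limma). It passed as lower under quantile normalization and cyclic loess (−0.83 and −0.82) and was 0.16 with median centring. PKP1 thus rose on a dim probe set and had no settled direction on the bright one.

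JUP averaged 3019 ± 267 on the arrays labelled ERG and 4015 ± 730 on control arrays (SD, n = 3 each). The groups overlapped, and the difference of −0.40 passed (adjusted p = 0.039, limma) but was 0.01 with median centring. It passed in 11 of 22 settings, and was lost without control array A (−0.32, adjusted p = 0.12, limma), control array B (−0.31), or array A or B of those labelled ERG (−0.38 and −0.35). It was also lost without ETV1 array B or C, which moves the spread and not the difference. DSP read 4622, 3776 and 7509 on the arrays labelled ERG and 5559, 5435 and 3813 on control arrays. The lowest and the highest of these 6 values were both on arrays labelled ERG. The DSP difference of 0.06 had an interval of −0.45 to 0.57, and it was lower and passed under quantile normalization and cyclic loess, at −0.55 and −0.64.

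PERP fell on 217744_s_at and 236009_at, by 0.66 and 0.91 on the log2 scale (adjusted p = 0.015 and 0.0036, limma). 217744_s_at read 2906, 3079 and 3316 on the arrays labelled ERG, against 5345, 5788 and 3801 on control arrays. On 222392_x_at PERP read 9349, 9689 and 10493 on the arrays labelled ERG and 8025, 8302 and 6398 on control arrays, with no overlap and a difference of 0.38 that did not pass (adjusted p = 0.062, limma). Neither fall passed with median centring, at −0.25 and −0.50, and 222392_x_at was higher and passed with it, at 0.79. The direction of PERP on the arrays labelled ERG thus depended on the probe set and the scaling.

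The arrays labelled ERG were also set against the ETV1 arrays directly. Of the 21 probe sets, 14 passed (5 higher, 9 lower), against 81.8% of all tested probe sets (43% higher, 38.8% lower), and 6 of the 14 differed at least 2-fold, where 49.1% of all did. Those 6 include DSC2 204750_s_at, PKP2 214154_s_at and PKP3 209872_s_at, whose falls the filter favoured. The balance of directions turned with the scaling: median centring gave 9 higher and 5 lower, and quantile normalization 4 and 13. The members' median difference was −0.28 as deposited and 0.15 with median centring. Groups did not overlap for 13 of 21, against 79.7% of all probe sets. This comparison and the others share arrays, so their values are given side by side and not as independent results. PKP3 gave the most negative differences, −1.71 on 209873_s_at (adjusted p = 3.1e-08, limma) and −2.06 on 209872_s_at (adjusted p = 5.3e-08, limma). On 209872_s_at the ETV1 arrays but no array labelled ERG lay above the median, so the filter favoured that value, given as a reading.

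On the arrays labelled ERG, DSG2 217901_at was higher than in ETV1 cells by 1.12 (adjusted p = 7.6e-06, limma). DSG3 differed by −1.65 on 205595_at (adjusted p = 4.6e-07, limma) and by −0.03 on 235075_at, with an interval of −0.40 to 0.34. On 235075_at the arrays labelled ERG and the ETV1 arrays therefore read alike in mean, 757 ± 47.1 and 780 ± 124, while on 205595_at they averaged 332 ± 39.0 and 1086 ± 195. Under quantile normalization and cyclic loess the 235075_at difference passed as lower, at −0.49 and −0.44, and with median centring as higher, at 0.40.

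DSC2 passed as lower than in ETV1 cells on 226817_at, 204751_x_at and 204750_s_at, at −0.44, −0.53 and −1.21. It passed as higher on 231033_at, at 0.59, a probe set that passed the filter mainly through the arrays labelled ERG. The filter favoured the fall on 204750_s_at, which passed through ETV1 and control arrays. The falls on 226817_at and 204751_x_at did not pass with median centring, at −0.01 and −0.10. PKP2 read 0.58 on 207717_s_at and −1.26 on 214154_s_at, a probe set tested only because 3 ETV1 arrays were above the median. PERP passed in both directions, 0.65 on 222392_x_at against −0.52 and −0.82 on 217744_s_at and 236009_at. Of 5262 genes with at least 2 passing probe sets in this comparison, 48.5% had them in both directions. PKP1 205724_at was higher by 0.82 (adjusted p = 1.2e-04, limma). DSC3, JUP and DSP passed on no probe set, with JUP at −0.16 and DSP at −0.29, and both passed as lower under quantile normalization, at −0.95 and −1.04.

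Genes around the desmosome were read at the brightest probe set of each. Where a gene had further probe sets, these were not read, so each value is a reading of 1 probe set. Of 9 further desmosome and cornified envelope parts, 5 were tested. EVPL, envoplakin, which links desmosomes to the cornified envelope, fell in ETV1 cells by 0.61 (adjusted p = 0.0089, limma). On the arrays labelled ERG it fell by 0.70 (adjusted p = 9.8e-04, limma), a fall that did not pass with median centring or cyclic loess (−0.29 and −0.19). EVPL averaged 101 ± 19.4 on ETV1 arrays, 93.8 ± 14.0 on arrays labelled ERG and 161 ± 12.7 on control arrays. PPL, its partner periplakin, differed by −0.18 and −0.12 and did not pass, although quantile normalization made the second −0.72 with an adjusted p of 3.2e-04 (limma). PNN, pinin, which is found at desmosomes and in the nucleus, rose by 0.80 on the arrays labelled ERG, but by 0.19 and without passing under quantile normalization. DSG1, DSG4, DSC1 and CDSN, which belong mainly to the upper layers of skin, were too dim to be tested.

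Of the keratins that desmosomes anchor, 8 of 11 listed were matched and tested. In ETV1 cells 5 passed as higher and 1 as lower, against 20.5% of all tested probe sets. KRT19, a keratin of simple epithelia, was higher by 0.74 (adjusted p = 0.021, limma) and passed in 20 of 23 alternatives, failing with no filter and without control array C or ETV1 array B. The other calls depended more on single arrays. KRT15 read 277, 295, 246 and 802 on ETV1 arrays and 208, 229 and 91.2 on control arrays, so that ETV1 array D was far above the rest. Its difference of 1.05 (adjusted p = 0.040, limma) was 0.67 and did not pass without that array or without control array C, and it passed in 15 of 23 alternatives. KRT16, a keratin of activated epidermis, was higher by 0.87 and passed in 16 of 23, failing among others without control array C or ETV1 array A, B or D. KRT14, a basal keratin, was higher by 0.41 and passed in 14 of 23, failing among others without any 1 control or ETV1 array. KRT7 was higher by 0.50 and passed in 15 of 22, and KRT18 fell by 0.57 and passed in 14 of 22, both keratins of simple epithelia. Among other settings, KRT18 failed without control array A or C or ETV1 array A or D, and KRT7 without control array B or C or ETV1 array A, B or C. On the arrays labelled ERG 4 passed as higher and 1 as lower, against 78.2% of all tested probe sets, with KRT5, KRT7 and KRT8 higher by 1.11, 1.84 and 1.04 and KRT16 lower, at −1.54, and these 4 passed the same way under quantile normalization, median centring and cyclic loess. KRT19, at 0.51, passed in 9 of 22 alternatives and was 0.02 under quantile normalization. KRT14, at 0.24 without passing, passed as lower with cyclic loess, at −0.52, and as higher with median centring, at 0.65.

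Of 14 listed transcription factors of the epithelial state, 9 were tested. In ETV1 cells 2 passed as higher and 3 as lower, against 20.5% of all tested probe sets. GRHL1 and GRHL2, grainyhead factors that act on junction genes, fell by 0.93 and 0.73 (adjusted p = 9.0e-04 and 0.0085, limma). The GRHL2 call was lost without control array A. KLF5 fell by 0.52 and passed in 18 of 23 alternatives, failing among others without control array A or B or ETV1 array C and under quantile normalization at −0.33, while GRHL3 and TWIST1 rose by 1.08 and 0.66. GRHL1 averaged 263 ± 21.8 on ETV1 arrays and 520 ± 107 on control arrays. On the arrays labelled ERG 6 of the 9 passed as higher and none as lower, against 40.6% of all tested probe sets higher: GRHL1, GRHL2, GRHL3, KLF4, SNAI2 and TWIST1, by 0.46 to 1.30. Of these, GRHL1, GRHL3 and TWIST1 also passed as higher under quantile normalization, median centring and cyclic loess. GRHL2, KLF4 and SNAI2 did not pass under quantile normalization, at 0.03, −0.17 and −0.10. KLF5, at 0.16 without passing, passed as lower under quantile normalization and cyclic loess (−0.45 and −0.48) and as higher with median centring (0.57). GRHL2 passed in 14 of 22 alternatives and was lost among others without control array C or array A or C of those labelled ERG, and SNAI2 passed in 16 of 22 and was lost among others without control array C or array B or C of those. GRHL1 thus stood below control in ETV1 cells and above it on the arrays labelled ERG, with a direct difference of 1.62 between them.

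Of 8 genes that shed, modify or link desmosomal proteins, 1 rose and none fell in ETV1 cells, against 20.5% of all tested probe sets called. This was PLEC, plectin, a plakin that binds keratin filaments, which averaged 1129 ± 146 on ETV1 arrays and 536 ± 251 on control arrays, a difference of 1.13 (SE 0.22, adjusted p = 0.0018, limma). On the arrays labelled ERG 2 passed as higher and 3 as lower, against 78.2% of all called, with PLEC at −3.04, PRKCA, a kinase that loosens desmosomes, at −2.04, and ADAM17, a sheddase, at −1.52. These 3 falls passed under the same 3 scalings. PRKCA read 34.01, 25.35 and 40.59 on arrays A to C labelled ERG, below their medians of 51.17, 48.45 and 52.55. PLEC read 51.46, 45.69 and 44.73 there, above the median on array A alone. Both passed the filter through ETV1 and control arrays, so it favoured the falls of PRKCA and PLEC, given as readings. The rises of CTNNB1, beta-catenin, and MACF1, a cytoskeletal linker, 0.52 and 0.85, did not pass under quantile normalization, at −0.10 and 0.40. The rise of MACF1 was also lost without control array C. CDH1, the classical cadherin of the neighbouring adherens junction, differed by −0.16 in ETV1 cells and by −0.10 on the arrays labelled ERG and passed in neither, but it was lower and passed on the arrays labelled ERG under quantile normalization, at −0.72.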

How the data were processed

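Total RNA was extracted with Trizol and labelled as biotinylated cRNA, per the labels' protocols. The authors deposited a linear intensity for each probe set and array. The sources used here do not say how these were summarised and normalised. They were used without further normalization, as log2(intensity + 16). Probe sets were named through GEO's platform annotation, with symbols checked against RefSeq (54 of 41091 unmatched), and promoter windows are RefSeq's (GRCh38.p14). Control probe sets were left out. Tests took probe sets brighter than the array's median on 3 or more arrays.

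limma (lmFit and eBayes, two-sided) was fitted to all 10 arrays in 3 groups, with 7 residual degrees of freedom, and p-values were adjusted by Benjamini-Hochberg over 31835 probe sets. Single probe sets were also compared by exact two-sided permutation tests. Genes of the further lists are given at their brightest probe set and named only where they passed, apart from those given as not passing or not tested. The members, lists and tests were chosen with earlier results of these data known. Several listed genes were not analysed here.

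Alternatives were quantile normalization, median centring, other filters, summaries per gene, limma settings, pseudocounts of 1 and 64, a replicate block, and leaving out each array. Cyclic loess and a fit of control and ETV1 arrays alone without ETV1 array D were added after seeing the data. No 2 arrays held identical values. The number of arrays limits the precision. Fits ran in R 4.3.3 with limma 3.58.1 and the package data.table (version 1.17.8), and figures were drawn in Python 3.11.15 with matplotlib 3.10.9 and pandas 2.3.3.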

Additional observations from a re-analysis of the deposited data

How the results depend on the processing

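The count of passing member probe sets for ETV1 versus control, 4 of 21, became 7 with quantile normalization, 7 with limma's trend and robust settings, 18 with array weights (whose estimation did not converge), 8 with a pseudocount of 64, 9 with only both groups compared and 10 with those groups and no ETV1 array D. It ran from 3 to 9 without 1 array. For arrays labelled ERG versus control, 17 became 11 with a 75th percentile filter, 7 with the brightest probe set per gene, 5 with probe sets averaged per gene and 7 with plain _at probe sets, settings that test fewer features, and ran from 13 to 18 without 1 array. Against ETV1, 14 became 8, 5, 6 and 6 under the same settings, and ran from 12 to 16. The labels do not say whether the letters A to C pair the arrays, and same-letter deviations correlated at −0.096 to 0.084. A replicate block gave 6, 16 and 12 passing.

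Signs that turned, none of them on a difference that had passed except where marked, are as follows, and the cause was not tested. For ETV1 versus control, array weights gave DSC2 231033_at 0.072 and PKP1 205724_at −0.27. PKP1 205724_at was −0.049 without array D or with the block, −0.00013 with quantile normalization and −0.0027 with loess. DSG2 217901_at was 0.037 with loess and 0.14 as a mean of probe sets. PERP 217744_s_at was 0.049 with quantile normalization and 0.048 with loess. For arrays labelled ERG versus control, DSP was −0.22 with array weights, −0.64 with loess and −0.55 with quantile normalization. PERP 222392_x_at was −0.35 with loess and −0.14 with quantile normalization. Median centring gave JUP 0.012 (it had passed) and PKP1 221854_at 0.16. Means of probe sets gave PERP −0.0016, PKP1 0.30 and PKP2 −0.056, and PKP2 −0.34 against ETV1 (PKP2's brighter probe set had passed in both). The −0.34 passed as lower, where PKP2's brighter probe set had passed as higher.

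For arrays labelled ERG versus ETV1, DSG3 235075_at was 0.058 with array weights, 0.40 with median centring and 0.068 with the block. DSG2 1553105_s_at was 0.15 with loess, 0.40 with median centring and 0.052 with quantile normalization. DSC2 204751_x_at (it had passed) was 0.028 with loess. PERP 222392_x_at (it had passed) was −0.30 with loess and −0.041 with quantile normalization, and PKP1 221854_at −0.61 with both. Median centring gave DSC3 0.15 and 0.41, DSP 0.14 and JUP 0.27, and the block gave DSC3 206033_s_at 0.13.

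Without 1 array, the ETV1 versus control differences ran from −0.29 to 0.021 for DSG2 217901_at, −0.35 to 0.040 for DSC2 231033_at, −0.095 to 0.12 for PKP1 205724_at, −0.015 to 0.16 for PKP3 209873_s_at, −0.34 to 0.0067 for PERP 217744_s_at and −0.33 to 0.051 for PERP 236009_at. DSP ran from −0.22 to 0.28 on arrays labelled ERG versus control. Against ETV1 the ranges were −0.086 to 0.027 for DSG2 1553105_s_at, −0.085 to 0.068 for DSG3 235075_at, −0.18 to 0.13 for DSC3 206033_s_at and −0.027 to 0.29 for PKP1 221854_at. Both DSG3 probe sets kept their rise in ETV1 cells wherever they were tested. So did PKP3 209872_s_at, although the filter favoured that rise, given as a reading. The brighter PKP3 209873_s_at differed by 0.08 and did not pass.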
